A study of Mus musculus with 6 samples.

Results

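The Ras association domain family (RASSF) and RasGEF1 genes were followed in mouse B lymphoma cells that carried 1 of 2 short hairpin RNAs. All 10 genes named Rasgef1a, Rasgef1b or Rassf1 to Rassf8 in the platform annotation, under their current or a former symbol, were taken, out of 18784 named genes on the array. Each had 1 probe set, so 10 of 10 members were measured. The families were chosen by the difference between the hairpins on these same arrays, in which Rasgef1a and Rassf6 were among the genes with the largest rises. Their differences are therefore given as a description, with no p-value.

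RASSF proteins bind activated Ras-like GTPases through a Ras association domain but are not enzymes. In the classical members, RASSF1 to RASSF6, that domain is followed by a SARAH domain, a short helix that pairs with the Hippo kinases MST1 and MST2 (genes Stk4 and Stk3), and several of these proteins promote cell death or arrest. RASSF7 and RASSF8 have the Ras association domain at the amino end and lack the SARAH domain. The RasGEF1 proteins carry the catalytic domain of Ras exchange factors, which load small GTPases with GTP. The human proteins RasGEF1A and RasGEF1B act on the GTPase Rap2. In lymphocytes the short RASSF5 isoform, RAPL, links active Rap1 to integrins.

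The series holds 3 arrays of cells with the hairpin Dhx9.1241 and 3 of cells with Rluc.713, a control hairpin named for Renilla luciferase. All 6 arrays share the background written as Arf-/-Eu-myc/Bcl-2: the cells lack the tumour suppressor Arf, express MYC from an immunoglobulin enhancer that is active in B cells, and carry Bcl-2. They were cultured on irradiated Arf-/- embryonic fibroblasts, no drug is named for these arrays, and 1 hairpin stands for Dhx9. Whether replicates were grown as separate cultures is not stated in the labels, so errors and p-values measure the spread between arrays, which may be technical.

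Dhx9, which encodes a DExH-box helicase, was at a log2 level of 11.46, 11.43 and 11.38 in Dhx9.1241, against 12.40, 12.48 and 12.36 in Rluc.713, a level 1.99-fold lower (log2 difference -0.99, SE 0.053, limma adjusted p = 0.000129). Sample titles name Dhx29 in its place, and that gene had a difference of 0.04 (limma adjusted p = 0.857). B lineage markers were bright on all arrays, with Cd79a between 13.62 and 13.76 in Dhx9.1241 and between 13.70 and 13.85 in Rluc.713. Among 10 measured B lineage markers 1 fell (Vpreb3), among 16 myeloid markers 4 fell (Lyz2, Csf1r, Tyrobp and Fcer1g), among 17 fibroblast markers 1 fell (Cav1), and of 12 T and NK cell markers none passed the limma threshold, with 1 at an unadjusted p under 0.05. In the 6 fits that leave out 1 array, Cav1 lost its call in 6 (limma adjusted p = 0.0543 to 0.190), Fcer1g in 5 and Csf1r in 4, while Vpreb3, Lyz2 and Tyrobp passed in all. Of the control arrays, replicate 1 scored 16.7 on principal component 2 (34.4% of the variance), away from replicates 2 and 3 at -4.81 and -5.29. Dhx9.1241 replicate 2 lay to the same side of its group, at 3.62 against -5.61 and -4.65 for replicates 1 and 3. Values without Rluc.713 replicate 1 are given where they bear on a result. Levels are robust multi-array average (RMA) values on a log2 scale, where a difference of 1 is a 2-fold change. In these bulk samples, a higher level per cell and a larger share of expressing cells cannot be told apart.

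Of the 10 genes, Rasgef1a and Rassf6 lay far above the control in Dhx9.1241, and the other 8 lay within 0.14 log2 units of it. Rasgef1a and Rassf6 were the 2 members past an adjusted p under 0.05 in the fit over all genes, both higher. The same threshold was passed by 3.14% of all genes tested in either direction, and by 2.07% in the higher and 1.07% in the lower direction. Both genes were among the 8 of 18784 genes (0.0426%) at least 2-fold higher, and 5 genes (0.0266%) were at least 2-fold lower. Since this contrast chose the genes, nothing is read from these counts. The median log2 difference was 0.03 over the 10 genes and 0.00 over all genes, with 6 members above 0 and 4 below.

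**Figure D1:**
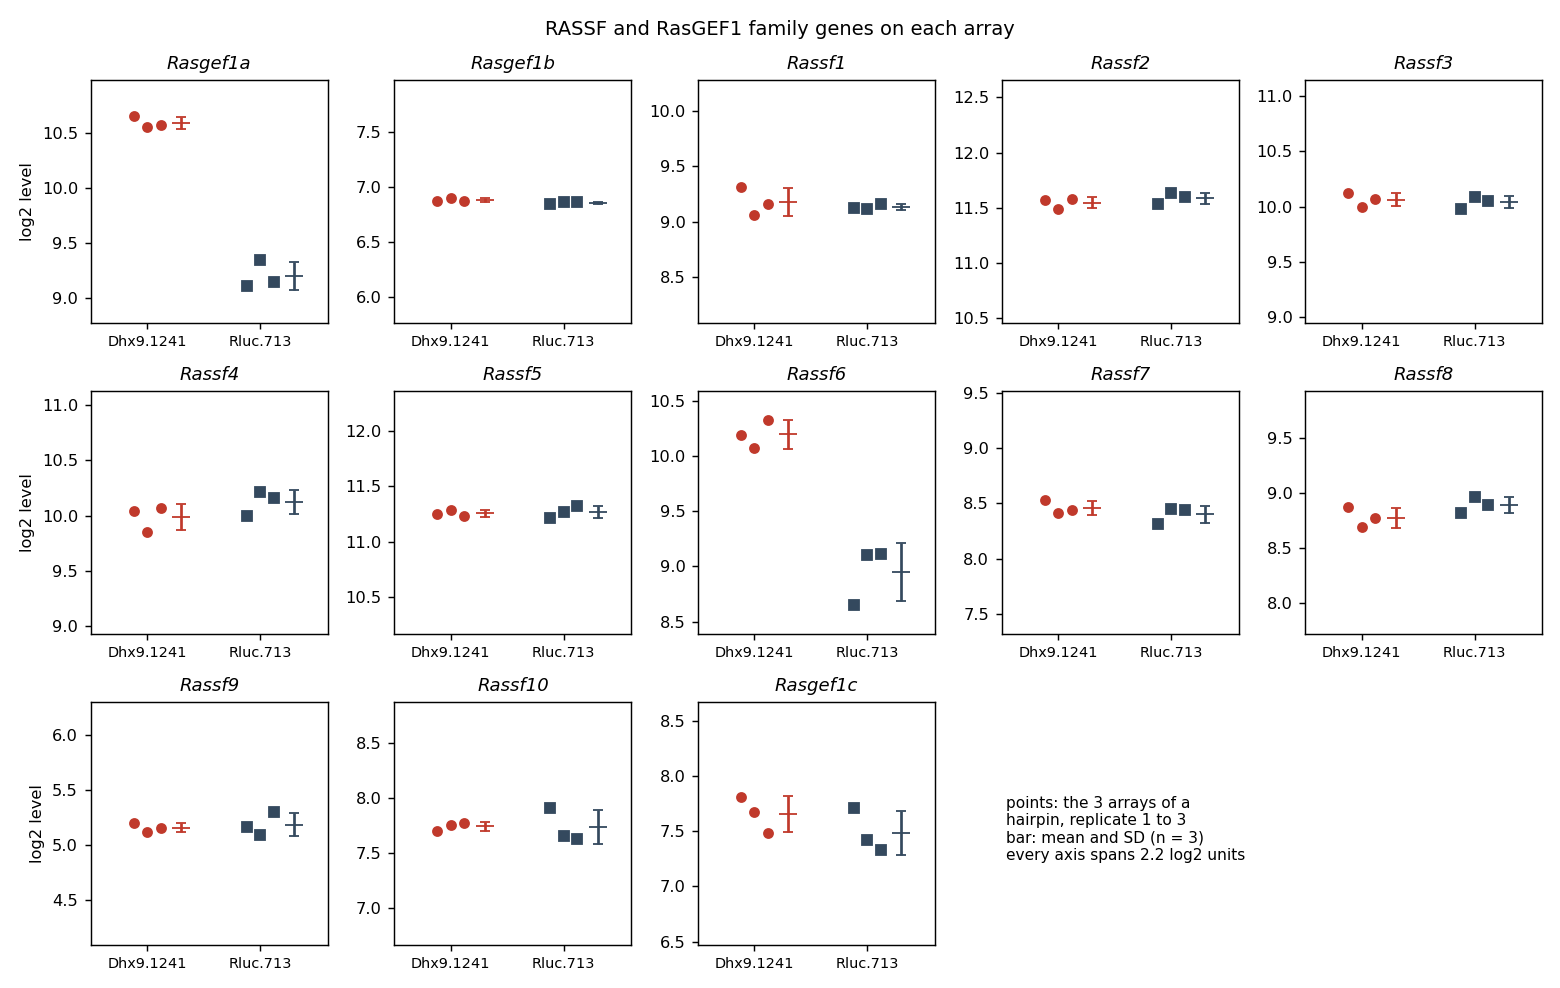
RMA log2 level of each family gene, and of Rassf9, Rassf10 and Rasgef1c, on each array, Dhx9.1241 in red and Rluc.713 in dark blue, with the mean and SD of 3 arrays beside the points; every axis spans the same number of log2 units. Rasgef1a and Rassf6 show a clear gap between the hairpins, while the points of the other genes lie at nearly the same height.

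Rasgef1a encodes one of the exchange factors. Its log2 level (probe set 70727_at) was 10.65, 10.55 and 10.57 on the Dhx9.1241 arrays, against 9.11, 9.35 and 9.15 on the Rluc.713 arrays. The lowest Dhx9.1241 array stood 1.21 log2 units above the highest control. The means were 10.59 ± 0.053 in Dhx9.1241 and 9.20 ± 0.127 in Rluc.713 (SD, n = 3 each), a log2 difference of 1.39 (SE 0.070, 95% interval 1.23 to 1.55) or 2.62-fold. Only 3 of the 18784 genes had a larger rise. Without Rluc.713 replicate 1 the difference was 1.35.

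Rasgef1b, the close relative of Rasgef1a that bacterial lipopolysaccharide induces in mouse macrophages, showed no such gap. Its level (320292_at) was 6.87, 6.90 and 6.87 in Dhx9.1241, against 6.84, 6.86 and 6.86 in Rluc.713. The groups did not overlap, but the gap between them was 0.0087 log2 units. The difference was 0.03 (SE 0.044, interval -0.07 to 0.13), with an upper bound of 1.09-fold on the RMA scale. Rasgef1b was below the median level of 8.47 over all genes, and RMA folds of dim genes tend to come out smaller. The bound may thus understate a change in transcript. With each array centred on its median the difference was 0.0083.

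The promoters of the 2 exchange factor genes are shown because the genes share a family and a CpG-rich start, while their log2 differences were 1.39 and 0.03. Windows come from RefSeq (GRCm38.p6), which listed a start for 8 of the 10 genes, Rassf3 and Rassf8 being those not listed in the table used. The 250 bases before the start are printed, 5′ to 3′ on the gene's strand, with CpG dinucleotides in capitals. Rasgef1a is at chr6:118011255-118011504, plus strand, and Rasgef1b at chr5:99252928-99253177, minus strand.
Rasgef1a: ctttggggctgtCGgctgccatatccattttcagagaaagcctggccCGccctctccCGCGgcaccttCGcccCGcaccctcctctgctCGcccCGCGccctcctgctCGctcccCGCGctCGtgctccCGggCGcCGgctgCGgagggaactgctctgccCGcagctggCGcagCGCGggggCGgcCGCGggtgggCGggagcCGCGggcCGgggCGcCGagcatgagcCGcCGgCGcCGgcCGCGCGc
Rasgef1b: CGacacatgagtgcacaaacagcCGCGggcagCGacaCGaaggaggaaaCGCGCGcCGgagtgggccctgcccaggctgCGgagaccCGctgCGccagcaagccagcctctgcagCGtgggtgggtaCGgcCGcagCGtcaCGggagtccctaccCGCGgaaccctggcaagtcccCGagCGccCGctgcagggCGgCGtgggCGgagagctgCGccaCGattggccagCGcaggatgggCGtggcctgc

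Both windows were dense in CpG. The Rasgef1a window held 37 CpG dinucleotides and 78.4% G and C, with an observed over expected CpG ratio of 0.97, higher than in 92.6% of 32841 RefSeq windows. The Rasgef1b window held 29, with 72.4% G and C and a ratio of 0.888. A second listed start of Rasgef1a had 14 CpG dinucleotides and a ratio of 0.512, and the median over all windows was 6 with a ratio of 0.374. With 1 probe set for the gene, transcripts from the 2 Rasgef1a starts were not measured separately.

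Among the SARAH domain genes, Rassf6 was the member with the large difference. RASSF6 promotes apoptosis and binds the MST kinases, and in human cells it also binds MDM2, which degrades p53. The Rassf6 level (73246_at) was 10.19, 10.07 and 10.33 in Dhx9.1241, against 8.65, 9.10 and 9.11 in Rluc.713. The groups were 0.957 log2 units apart at their nearest arrays, and the control with the lowest value was replicate 1, the array that stood apart on the principal component. The means were 10.20 ± 0.131 in Dhx9.1241 and 8.95 ± 0.262 in Rluc.713 (SD, n = 3 each), a log2 difference of 1.24 (SE 0.125, interval 0.95 to 1.53) or 2.37-fold. Without Rluc.713 replicate 1 it was 1.09 (SE 0.0745), and without both that array and Dhx9.1241 replicate 2 it was 1.16 (SE 0.0615). The second of these fits was added after the values were seen.

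The upstream bases of Rassf6 are set beside those of Rassf2, a SARAH domain gene with a start of nearly the same CpG content whose levels overlapped between the hairpins. The Rassf6 window is chr5:90640528-90640777, minus strand, and the Rassf2 window chr2:132030325-132030574, minus strand, with CpG dinucleotides again in capitals. On this strand the genes begin at 90640734 (Rassf6) and 132030416 (Rassf2), so both windows lie partly inside their gene and belong to inner starts. The bases before the outer starts had no window of their own.
Rassf6: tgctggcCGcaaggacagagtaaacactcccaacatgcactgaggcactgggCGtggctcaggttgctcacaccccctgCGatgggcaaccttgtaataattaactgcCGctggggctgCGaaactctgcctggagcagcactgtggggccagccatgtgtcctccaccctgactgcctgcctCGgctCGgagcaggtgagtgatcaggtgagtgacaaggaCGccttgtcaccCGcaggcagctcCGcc
Rassf2: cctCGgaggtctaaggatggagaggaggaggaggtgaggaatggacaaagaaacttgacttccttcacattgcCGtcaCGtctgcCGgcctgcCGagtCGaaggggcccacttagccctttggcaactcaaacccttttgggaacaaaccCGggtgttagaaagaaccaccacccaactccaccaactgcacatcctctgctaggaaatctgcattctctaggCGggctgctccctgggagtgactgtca

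The Rassf6 window had 10 CpG dinucleotides, 61.6% G and C and an observed over expected ratio of 0.422. The Rassf2 window had 8, with 55.2% G and C and a ratio of 0.42. Of the member windows, that of Rassf5 had the lowest ratio, 0.179 with 4 CpG dinucleotides. It lies at chr1:131200186-131200435, minus strand, inside a gene that runs from 131176410 to 131245178. The outer start of Rassf5 had no window, so the ratio is that of an inner start. The 2 windows of Rassf1, whose CpG-rich promoter is often methylated and silent in human tumours, held 23 and 24 CpG dinucleotides, with ratios of 0.815 and 0.85. Rassf4 (0.714) and Rassf7 (0.758) lay between. The Rassf7 window, chr7:141215610-141215859 on the plus strand, lies inside a gene that begins at 141215425, so it too is that of an inner start. The Rasgef1a and Rassf6 windows thus had the highest ratio of the member windows (start 1) and one near the median of all windows.

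**Figure D2:**
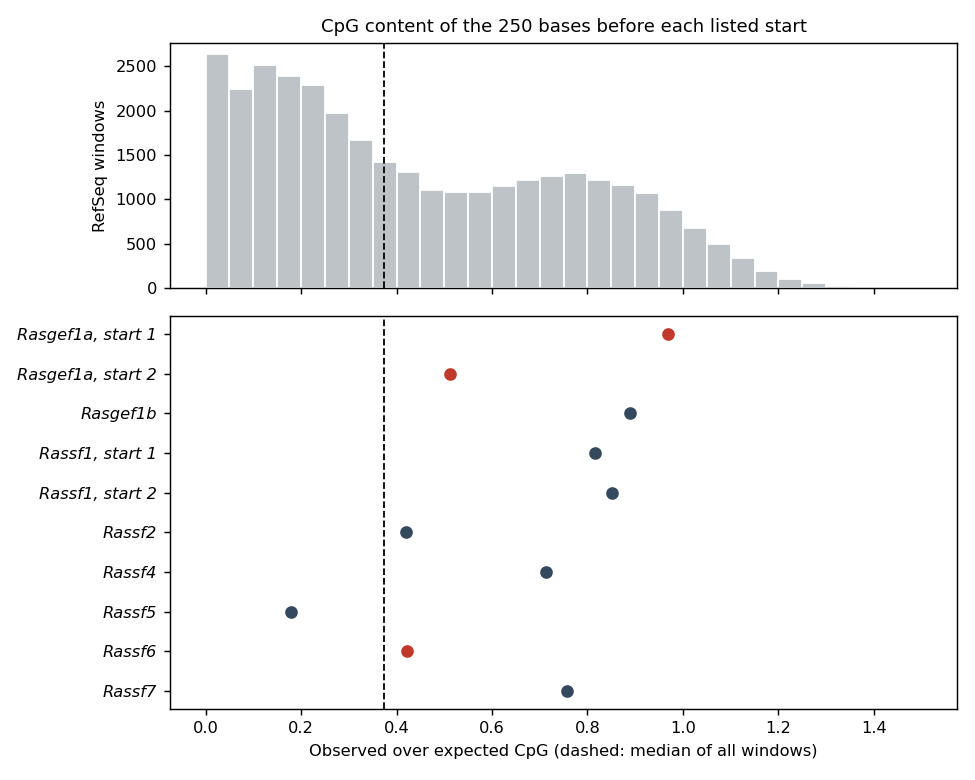
Observed over expected CpG in the 250 bases before each start: the upper panel counts all RefSeq windows by ratio, and the lower panel gives each listed start of a family gene, Rasgef1a and Rassf6 in red and the others in dark blue. Rasgef1a start 1 lies at 0.97 and Rassf6 at 0.422, against a median of 0.374 over all windows (dashed).

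The same 250 bases were searched on both strands for 6 motifs. The GC box GGGCGG was found in 8 of 10 member windows, with 3 and 4 matches at the starts of Rasgef1a and 0 in Rassf6 and Rassf2. It occurs in 32.7% of all windows, whose median G and C content was 52.4%, against 55.2% to 78.4% in the member windows. A share matched for G and C content was not computed. CCAAT was found in 4 of 10, those of Rasgef1b, the first Rassf1 start, Rassf4 and Rassf7, against 33.9% of all windows, and overlapped a GC box in 0 of them. The E-box CACGTG (6.02% of all windows), the AP-1 site TGANTCA (6.75%), the interferon response core, GAAA repeated after a gap of 2 bases (2.98%), and TATAAA (12.4%) had no match in any member window. These are letter matches only, and several windows, those of Rassf6 and Rassf2 among them, reach into their genes.

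The remaining SARAH domain genes stayed close to the control. Rassf1, which encodes a microtubule-binding tumour suppressor, was at 9.31, 9.06 and 9.16 in Dhx9.1241, against a range of 9.11 to 9.16 in Rluc.713. The groups overlapped, the Dhx9.1241 arrays spread more (SD 0.130) than the controls (SD 0.027), and the difference was 0.04 (interval -0.11 to 0.20). Rassf2, whose protein is stabilised by MST1 and binds the death-promoting protein PAR-4, was at 11.57, 11.49 and 11.58 in Dhx9.1241, against 11.53, 11.63 and 11.60 in Rluc.713. Its difference was -0.04 (interval -0.16 to 0.08), with overlapping groups.

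Rassf3, another pro-apoptotic member, was at 10.12, 10.00 and 10.07 in Dhx9.1241, against 9.98, 10.09 and 10.05 in Rluc.713, a difference of 0.02 (interval -0.10 to 0.15). Rassf5, the gene of NORE1 and RAPL, was at 11.25, 11.29 and 11.23 in Dhx9.1241, against 11.21, 11.27 and 11.32 in Rluc.713, a difference of -0.01 (interval -0.13 to 0.10). Rassf4 had the lowest difference of the 10 genes. Its level was 10.04, 9.85 and 10.07 in Dhx9.1241, against 10.00, 10.21 and 10.16 in Rluc.713, so the groups overlapped, and the difference was -0.14 (SE 0.078, interval -0.32 to 0.04). Without 1 array the Rassf4 difference ran from -0.20 to -0.07, and in 5 of 15 alternatives its interval left out 0, among them array weights, cyclic loess, a repeated quantile normalization and the fit without Rluc.713 replicate 1.

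Rassf7 and Rassf8, the RASSF members that lack the SARAH domain, also overlapped between the hairpins. Rassf7, which acts in mitotic spindle formation, was at 8.53, 8.41 and 8.44 in Dhx9.1241, against 8.31, 8.45 and 8.44 in Rluc.713. The difference was 0.06 (interval -0.08 to 0.19). Rassf8, linked to cell-cell junctions in epithelia, was at 8.87, 8.69 and 8.77 in Dhx9.1241, against 8.82, 8.96 and 8.89 in Rluc.713, a difference of -0.12 (interval -0.26 to 0.03). The Rassf8 interval left out 0 in 4 of 15 alternatives: array weights, a repeated quantile normalization, and the fits without Dhx9.1241 replicate 1 or Rluc.713 replicate 1, where its difference was -0.17 and -0.15.

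Across the 8 genes, the differences ran from -0.14 to 0.06 with standard errors of 0.044 to 0.078, against a median standard error of 0.061 over all genes. On the RMA scale, their 95% intervals allowed a fall of up to 1.25-fold (Rassf4) and a rise of up to 1.15-fold (Rassf1). The intervals of Rasgef1a and Rassf6 began at 2.35-fold and 1.94-fold. In all, 3 of the 10 genes had groups that did not overlap, Rasgef1b by the narrow gap given above, where 20.1% of all genes did (11.6% higher and 8.51% lower in Dhx9.1241).

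**Figure D3:**
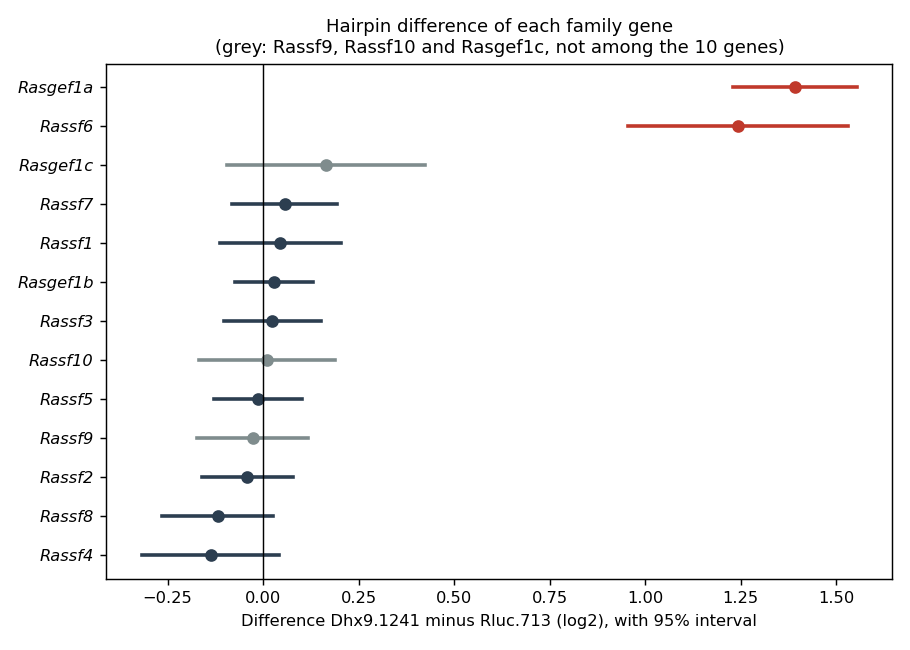
Log2 difference Dhx9.1241 minus Rluc.713 with its 95% interval from the limma fit, for the 10 family genes and, in grey, for Rassf9, Rassf10 and Rasgef1c. Rasgef1a at 1.39 and Rassf6 at 1.24 stand apart, and all other intervals of this fit include 0.

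The other 3 genes of these names complete the 2 families on this array and were not among those chosen. Rassf9, whose protein was found on recycling endosomes, was at 5.20, 5.12 and 5.15 in Dhx9.1241, against 5.16, 5.09 and 5.30 in Rluc.713 (log2 difference -0.03, interval -0.17 to 0.12, limma adjusted p = 0.943). Rassf10 was at 7.70, 7.76 and 7.77 in Dhx9.1241, against 7.91, 7.66 and 7.63 in Rluc.713 (0.01, interval -0.17 to 0.19, limma adjusted p = 0.985). Rasgef1c, the relative of Rasgef1a and Rasgef1b, was at 7.81, 7.67 and 7.48 in Dhx9.1241, against 7.71, 7.42 and 7.33 in Rluc.713. Its mean was higher by 0.17, but the groups overlapped and the interval ran from -0.09 to 0.42 (limma adjusted p = 0.654). None of these genes passed the threshold, and none had an unadjusted p under 0.05. All 3 were below the median level of 8.47 over all genes, and RMA folds of dim genes tend to come out smaller.

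The genes whose 6 array values were most like those of Rasgef1a, by the root mean square difference after each gene was centred on its own mean, were Fam221a (0.118 log2 units), Rsad2 (0.148) and Rassf6 (0.161). Those most like Rassf6 were Slc23a1 (0.132), Rsad2 (0.140) and Rasgef1a (0.161). Rsad2 encodes the antiviral protein viperin and Slc23a1 a vitamin C transporter. With 6 arrays in 2 groups, a small distance requires a difference of like size, and Rsad2 had a log2 difference of 1.23, Slc23a1 of 1.01 and Fam221a of 1.54.

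Genes that act around the 2 families were counted in 7 lists with 112 measured genes. Of these, 5 rose, 2 fell and 105 did not pass the limma threshold, or 6.25% past it, against 3.14% of all genes. The lists were written with earlier results of these data known, so nothing is read from this share. They also held many bright genes: in the fit on genes at or above the median level, 14 of 82 list genes passed, against 991 of 9392 genes. After cyclic loess or a repeated quantile normalization 6 of the 112 were higher and 6 lower. Without Rluc.713 replicate 1 the counts were 5 higher and 7 lower. Unadjusted p-values under 0.05 were also tallied, which 8.5% of all genes had on the higher side and 5.63% on the lower side. They were 2 higher and 1 lower for Hippo, 2 and 1 for GTPases, 3 and 1 for exchange factors, 4 and 3 for GTPase-activating proteins, 0 and 5 for RAF-MEK-ERK, 2 and 3 for the Rap1 and integrin route, and 0 and 0 for other RASSF partners. The plot of the lists gives every gene.

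**Figure D4:**
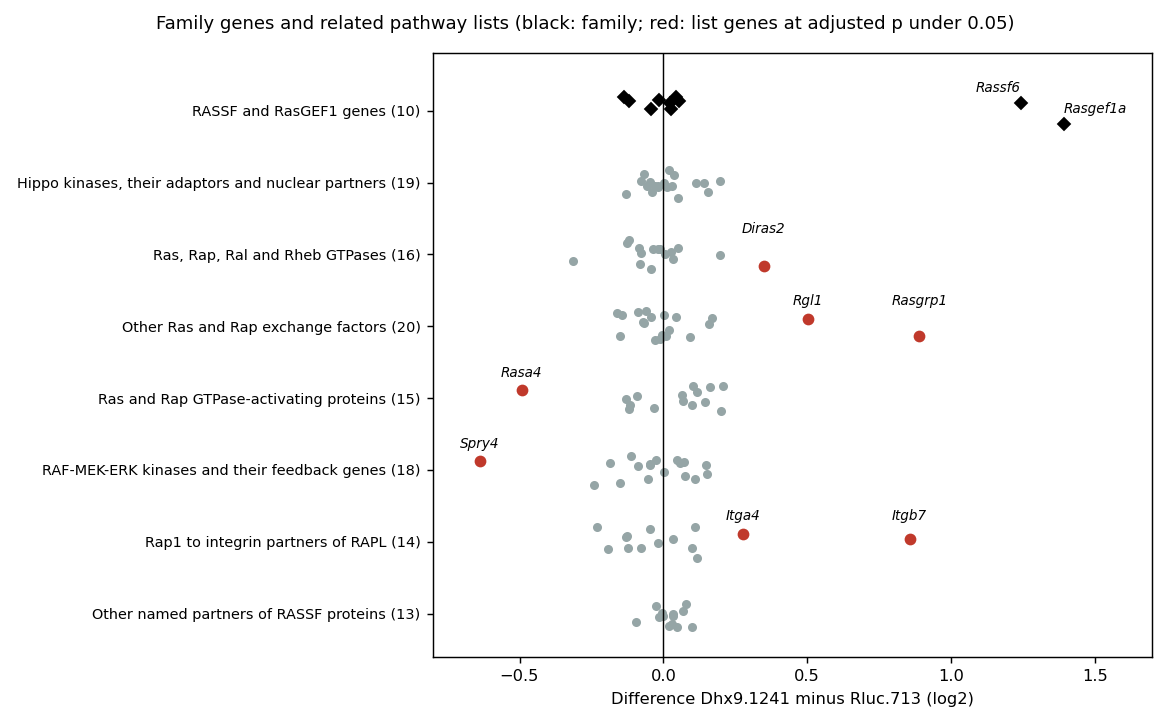
Log2 difference Dhx9.1241 minus Rluc.713 of the family genes (black diamonds) and of each gene in 7 related lists, with the number measured in parentheses; red points passed an adjusted p under 0.05 over all genes and grey points did not. Besides Rasgef1a and Rassf6, the labelled points are Diras2, Rgl1, Rasgrp1, Itga4 and Itgb7 on the higher side and Rasa4 and Spry4 on the lower side.

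No measured gene of the Hippo list passed. The median difference of its 19 genes was 0.00. The kinase genes Stk38l (0.20, limma adjusted p = 0.204) and Lats2 (0.15, limma adjusted p = 0.305) had the largest differences. Stk4, the gene of the RASSF partner MST1, was at 12.72, 12.64 and 12.74 in Dhx9.1241, against 12.73, 12.74 and 12.72 in Rluc.713, a difference of -0.03. Stk4 was singled out after its values were seen, and Stk3 was not analysed here. The same held for 13 other named partners of RASSF proteins: none passed in limma and none had an unadjusted p under 0.05, with Mdm2 at 0.10 and Mapk8 at -0.09 (limma adjusted p = 0.485 and 0.441).

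Among exchange factors other than RasGEF1, 2 of 20 rose and none fell. Rasgrp1, a diacylglycerol-activated exchange factor for Ras in lymphocytes, was at 11.37, 11.21 and 11.44 in Dhx9.1241, against 10.37, 10.47 and 10.50 in Rluc.713. It rose 1.85-fold (log2 difference 0.89, SE 0.070, limma adjusted p = 0.000816). Rgl1, a member of the Ral exchange factor group that binds active Ras, averaged 11.38 ± 0.0335 in Dhx9.1241 and 10.87 ± 0.107 in Rluc.713 (SD), and rose by 0.50 (SE 0.063, limma adjusted p = 0.0053). For both genes every Dhx9.1241 array was above every control. Among 15 GTPase-activating proteins, which switch Ras and Rap off, Rasa4 fell by 0.49 (SE 0.067, limma adjusted p = 0.00794) and none rose in the fit reported here. Rasa4 was at 9.28, 9.20 and 9.10 in Dhx9.1241, against 9.58, 9.76 and 9.72 in Rluc.713, with no overlap. Array weights, cyclic loess and a repeated quantile normalization each gave this list 1 higher and 1 lower call, the filter on dim genes 2 higher and 1 lower, and a variance trend with robust estimation 3 higher and 2 lower.

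Of 16 measured GTPase genes of the Ras, Rap, Ral and Rheb groups, Diras2 rose by 0.35 (SE 0.050, limma adjusted p = 0.00981) and 15 did not pass. Diras2 was at 9.98, 9.87 and 9.88 in Dhx9.1241, against 9.54, 9.56 and 9.58 in Rluc.713, with no overlap. With Dhx9.1241 replicate 1 left out, Diras2 no longer passed (limma adjusted p = 0.0542), and without Rluc.713 replicate 1, after cyclic loess or after a repeated quantile normalization the list had 1 call in each direction. With array weights or the filter on dim genes it had 2 higher and 1 lower. The Rap2 genes, singled out after their values were seen because RasGEF1 proteins act on Rap2, did not pass in the fit reported here. Among listed genes with lower means, Rap2c had the smallest adjusted p in that fit. Which gene gave the lower call of the alternatives was not looked up. Rap2c was at 9.59, 9.40 and 9.55 in Dhx9.1241, against 9.74, 9.94 and 9.80 in Rluc.713 (difference -0.31, limma adjusted p = 0.0641), with no overlap. Rap2b (-0.08) and Rap2a (0.03) lay near 0.

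In the RAF-MEK-ERK list 1 of 18 genes fell and none rose. Spry4, a feedback inhibitor that ERK signalling induces, was at 8.70, 8.80 and 8.76 in Dhx9.1241, against 9.26, 9.52 and 9.40 in Rluc.713, a fall of 1.56-fold (log2 difference -0.64, SE 0.070, limma adjusted p = 0.00305). Dusp6, a phosphatase gene of the same feedback and singled out after its values were seen, had a difference of -0.24 (limma adjusted p = 0.0561). Without Rluc.713 replicate 1, 3 of the 18 passed, all lower, and 2 passed after cyclic loess or a repeated quantile normalization, both lower.

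Of 14 genes of the Rap1, RAPL and integrin route, 2 rose and none fell. The integrin gene Itgb7 was at 9.80, 9.71 and 9.63 in Dhx9.1241, against 8.78, 8.84 and 8.96 in Rluc.713, and rose 1.81-fold (log2 difference 0.86, SE 0.066, limma adjusted p = 0.000762). Its partner Itga4, which pairs with it in the gut-homing integrin, rose by 0.28 (SE 0.046, limma adjusted p = 0.0179), a call that was lost in 5 of 6 fits without 1 array (limma adjusted p = 0.0572 to 0.0983), all but that without Rluc.713 replicate 1. Itgal, the integrin chain of LFA-1 that RAPL acts on, had a difference of -0.19 (limma adjusted p = 0.0937). Without Rluc.713 replicate 1, 4 of the 14 passed, 2 in each direction, as after cyclic loess or a repeated quantile normalization, and without any other single array 1 passed.

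The genes beside Rasgef1a and Rassf6 on their chromosomes had differences of at most 0.22 and 0.07. For each of the 10 genes, the 2 nearest measured protein-coding genes on either side were taken from the gene order of GRCm38.p6, a choice made after the values were seen. Beside Rasgef1a lie Zfp239 (log2 difference 0.05), Fxyd4 (-0.07), Csgalnact2 (-0.02) and the receptor kinase gene Ret (0.22), and beside Rassf6 lie Afm (0.07), Albfm1 (-0.05) and the chemokine genes Cxcl5 (-0.03) and Ppbp (-0.03). None of these 8 genes passed in limma, and Ret had the smallest adjusted p, 0.0724. Fxyd4, Ret and every listed neighbour of Rassf6 were below the median level of 8.47 over all genes. RMA folds of dim genes tend to come out smaller, so small differences there may understate a change in transcript.

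Over all 40 neighbours of the 10 genes, 3 rose and none fell, where 2.07% of all genes rose, and 7 had an unadjusted p under 0.05, which 14.1% of all genes had. Each of the 3 lay beside a family gene whose own groups overlapped. They were Sspn, the gene of sarcospan, beside Rassf8 (0.93, limma adjusted p = 0.0025), the interferon regulatory factor gene Irf7 beside Rassf7 (0.39, limma adjusted p = 0.0279) and the kinase gene Ikbke beside Rassf5 (0.35, limma adjusted p = 0.0341). Sspn was at 9.56, 9.28 and 9.38 in Dhx9.1241, against 8.29, 8.61 and 8.53 in Rluc.713, with no overlap.

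**Figure D5:**
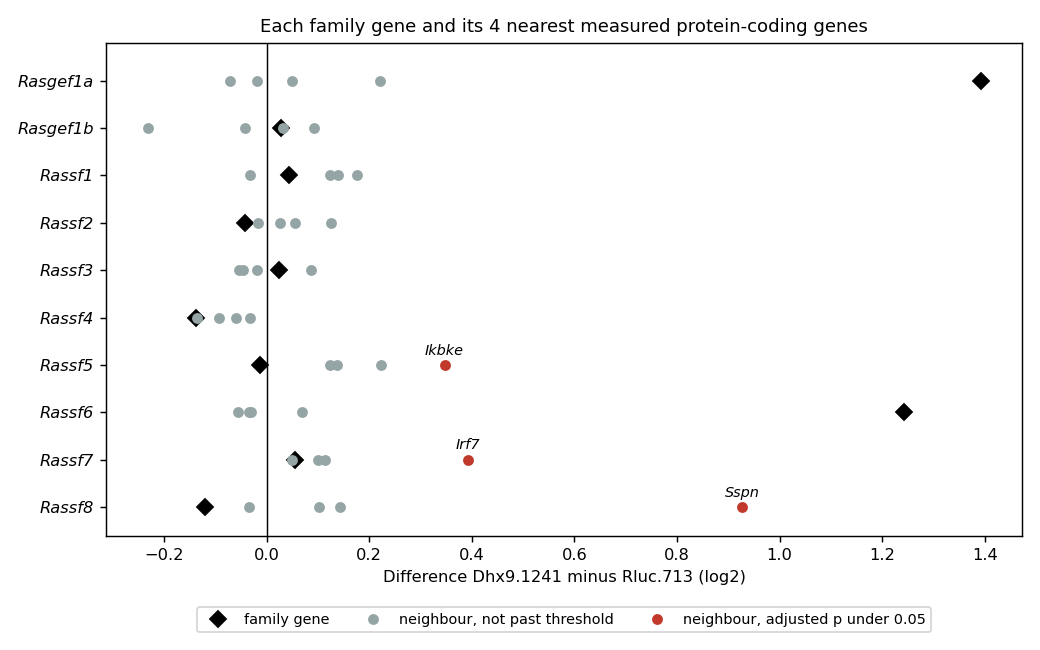
Log2 difference Dhx9.1241 minus Rluc.713 of each family gene (black diamond) and of the 4 nearest measured protein-coding genes on its chromosome (points; red where adjusted p was under 0.05 over all genes). Rasgef1a and Rassf6 lie far to the right of their own neighbours, while Sspn, Irf7 and Ikbke rose beside family genes near 0. All neighbours of Rassf6, and Fxyd4 and Ret beside Rasgef1a, were below the median level, where RMA folds tend to come out smaller.

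Marker levels of other cell types were set beside the rises of Rasgef1a and Rassf6. The summed myeloid level of 16 markers, as log2 of the sum of unlogged values, was 13.11 to 13.17 in Dhx9.1241, against 13.30 to 13.37 in Rluc.713, lower while the 2 genes were higher. Single markers went both ways: beside the 4 that fell, Fcgr3, the brightest of the 16, had a difference of 0.22 (limma adjusted p = 0.0972) and Itgam one of 0.21 (0.152), both with no overlap between the groups. The summed level of 17 fibroblast markers was 14.31 to 14.36 in Dhx9.1241, against 14.24 to 14.27 in Rluc.713. Vim, which is not particular to fibroblasts, was the brightest of them, at 13.94, 13.87 and 13.94 in Dhx9.1241, against 13.77, 13.79 and 13.80 in Rluc.713. Of the other fibroblast markers, Cav1 (-0.25), Fn1 (-0.28, limma adjusted p = 0.281) and Acta2 (-0.21, limma adjusted p = 0.238) had lower means in Dhx9.1241, and the median difference of the 17 was -0.02. Fcgr3, Itgam, Vim, Fn1 and Acta2 were singled out after their values were seen. The summed T and NK cell levels overlapped, at 11.03 to 11.07 in Dhx9.1241 and 10.96 to 11.10 in Rluc.713, and B lineage levels were 16.29 to 16.37 in Dhx9.1241, against 16.39 to 16.50 in Rluc.713. RMA values have no 0, so no marker is listed as absent, and the part of other cell types in the differences was not tested.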

How the data were processed

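RNA of 6 samples was labelled with a 3′ in vitro transcription kit and hybridised to Affymetrix arrays, per the labels' protocols. The authors deposited log2 expression per probe set, made with RMA per the submitters' processing notes; for its version and the probe set definition the sources used here give nothing. RMA includes a step that brings arrays to 1 distribution, and folds of dim genes tend to come out smaller. The deposited arrays still differed in their medians, which ran from 8.43 to 8.51. After quantile normalization again, 870 genes passed the limma threshold, 517 higher and 353 lower, against 590 with the values as deposited. Values ran from 3.97 to 14.6, which gives the log2 scale. Of 21212 probe sets, 18786 had 1 gene symbol, 6 several and 2420 none, and the last 2 kinds were left out; Entrez numbers updated symbols through the gene table of GRCm38.p6, and 2 genes with several probe sets kept the brightest, leaving 18784 genes.

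A linear model without covariates gave Dhx9.1241 minus Rluc.713 per gene (lmFit, then eBayes, of limma 3.58.1 under R 4.3.3), two-sided, with Benjamini-Hochberg adjustment over all genes and a threshold of 0.05. The fit was tested on simulated data. The members and lists were chosen with earlier results of these data known. Named were every member, Rassf9, Rassf10 and Rasgef1c, Dhx9, Dhx29, up to 4 called genes in a list or its 2 largest differences where none was called, and the 3 genes nearest in pattern to the 2 members with the largest differences; others are marked as singled out later. Alternatives were median centring, quantile normalization again, cyclic loess, a filter on dim genes, a variance trend with robust estimation, array weights, the replicate block, probe set means and leaving out each array; leaving out both Rluc.713 replicate 1 and Dhx9.1241 replicate 2 was added after the values were seen. The number of arrays limits the precision.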

Additional observations from a re-analysis of the deposited data

How the results depend on the processing

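Rasgef1a and Rassf6 were the 2 members past the threshold in each of the 15 alternatives. Since this contrast on the same arrays chose the genes, nothing is read from these calls. The log2 differences of Rasgef1a and Rassf6 ran from 1.35 to 1.46 and from 1.09 to 1.32 without 1 array. Under the other alternatives they ran from 1.33 to 1.39 and from 1.13 to 1.24. The count over all genes was 590, and 1211 with array weights (55.2% higher, against 65.9% with equal weights), 1139 with robust estimation on a variance trend, 991 when dim genes were left out, 264 with the replicate block, and 205 to 896 without 1 array, the highest without Rluc.713 replicate 1. The 112 list genes gave 7 calls, and 15 with array weights, 12 after cyclic loess (6 in each direction, as after quantile normalization again), 12 after quantile normalization again, 14 when dim genes were left out (82 tested), 16 with robust estimation on a variance trend, and 5 to 12 without 1 array. Causes of these moves were not tested. Deviations of same-numbered arrays of the 2 hairpins from their group means correlated at r = -0.27, -0.34 and 0.24 across genes. Over all pairs between the hairpins, the largest r was 0.48, for Dhx9.1241 replicate 2 with Rluc.713 replicate 1. With 3 arrays per group, such values cannot settle whether the numbers pair the arrays, and the main fit does not pair them. With the replicate block Diras2 (limma adjusted p = 0.0524), Itga4 (0.0883), Fcer1g (0.0967) and Cav1 (0.117) lost their calls. Of the 10 members 8 were at or above the median level. Rassf7 and Rasgef1b were the 2 below it.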
